A study of Homo sapiens with 9 samples.

Results

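The values of 10 genes of signalling and cell shape, all reported as targets of the miR-200 family, were followed across 9 expression arrays of Hec50 cells. They are PPM1F, FHOD1, ELMO2, RIN2, ERBIN, SHC1, PTPN13, KLHL20, SUZ12 and WDR37. Every probe set whose only gene symbol was one of these names was taken, which gave 28 of the 54613 probe sets tested and 10 of the 19775 genes tested. A probe set is a group of short oligonucleotides on the array that together report 1 transcript region. No measured value entered the choice by symbol, but the 10 names were listed with earlier results of these data known, and PPM1F had also been named by the group that made the arrays, so its direction here is not independent evidence. A further probe set, 213971_s_at, matched both SUZ12 and its pseudogene SUZ12P1 and was left out.

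Hec50 is an established human cell line of aggressive endometrial cancer, and the study asked which of its genes miR-200c regulates. Total RNA was hybridised to Affymetrix arrays in 3 groups of 3: cells given a miR-200c mimic at 60 nM for 48 h, cells given a scrambled negative control RNA at the same dose and for the same time, and mock-transfected cells, for which the labels give no dose or time. All groups were the same line in the same medium, so the results concern 1 cell line. The labels do not say that the arrays of a group came from separate cultures, so the p-values measure the spread between these arrays, which may be technical.

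MicroRNAs of the miR-200 family guide silencing complexes to messenger RNAs that carry a match to the miRNA's seed, the bases near its 5′ end, and the bound messages are translated less or degraded. The family is abundant in epithelia and is known for holding down ZEB1 and ZEB2, repressors of epithelial genes. Besides these repressors, genes of actin assembly, motility and receptor signalling have been reported as its targets. The mature sequences are shown because the seed divides the family in groups and is the part by which a target is named. They are from RefSeq, read 5′ to 3′ on the plus strand of GRCh38.p14, with the seed (bases 2 to 8) in capitals. The labels call the mimic miR-200c and do not print its sequence, so the RefSeq entry of miR-200c stands first. The first 3 share a seed.
hsa-miR-200c-3p: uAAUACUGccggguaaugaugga
hsa-miR-200b-3p: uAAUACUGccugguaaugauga
hsa-miR-429: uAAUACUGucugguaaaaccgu
hsa-miR-200a-3p: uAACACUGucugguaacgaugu
hsa-miR-141-3p: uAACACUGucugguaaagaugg

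hsa-miR-200c-3p lies at chr12:6963742-6963764, beside hsa-miR-141-3p at chr12:6964155-6964176. The others form a cluster on chromosome 1, with hsa-miR-200b-3p at chr1:1167160-1167181, hsa-miR-200a-3p at chr1:1167916-1167937 and hsa-miR-429 at chr1:1169055-1169076. Counted from 1 at the 5′ end of miR-200c, the seeds of the last 2 sequences differ from it by U4C, so a message carrying CAGTATT in DNA letters matches the seed of miR-200c and one carrying CAGTGTT matches the other seed. Sites in the 10 messages were not analysed here.

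The deposited values were read as log2, a base that the labels do not give. They were centred, so that for every probe set the middle one of its 9 values is 0. A value is therefore a difference from that middle, and levels cannot be compared between genes. A gene's value is the mean of its probe sets in its highest level class (log2 level 8 or more, 4 to 8, or under 4). Those classes were read from the rounding of the deposited values. Differences were tested with limma over all genes or all probe sets, and a call is a Benjamini-Hochberg adjusted p under 0.05. In bulk RNA, fewer cells that express a gene and less RNA per cell cannot be told apart.

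As a check of the labelled cell type, all 4 mesenchymal markers and 4 of 6 epithelial markers (KRT8, KRT18, KRT7 and EPCAM among them) were at level 8 or more, the leukocyte marker PTPRC and the endothelial marker CDH5 were under 4, and of the 5 endometrial lineage markers PAX8 alone reached 8. Of the leukocyte markers 2 of 5, and of the fibroblast markers 3 of 5, were also at 8 or more. PTPRC was the only 1 of the 5 leukocyte markers under 4. CDH5 was the only 1 of the 5 endothelial markers under 4, and the other 4 were at 4 to 8. ZEB1, the best-known target of the family, was lower with the mimic, with a log2 change of -1.57 against scrambled control and -1.56 against mock. Between arrays of a group the SD of the difference over all genes was 0.112 to 0.149. A sign of RNA or labelling quality is the 3′ minus 5′ difference of the ACTB control probe sets. As both are centred, it compares arrays only and does not give the 3′ to 5′ ratio itself. This difference averaged 0.02 ± 0.08 in mimic, 0.10 ± 0.04 in scrambled control and -0.18 ± 0.03 in mock arrays (SD, n = 3 each). It was higher on every mimic and every scrambled array than on any mock array, while that of GAPDH overlapped among the groups. Its part in the differences from mock given here was not tested.

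Against scrambled control, 5 of the 10 genes were lower with the mimic (PPM1F, ELMO2, SHC1, PTPN13 and KLHL20), none was higher, and 5 did not pass in limma. At an unadjusted p under 0.05, 6 were lower and 2 (RIN2 and ERBIN) higher, beside 13.6% of all genes lower and 13.0% higher. Among all genes 14.5% were called, 7.56% higher and 6.95% lower. The median log2 change of the 10 was -0.20, beside -0.01 over all genes. Against mock, 5 were lower (PPM1F, FHOD1, ELMO2, SHC1 and KLHL20), 2 were higher (ERBIN and WDR37) and 3 did not pass, where 18.5% of all genes were called, 8.28% higher and 10.2% lower. The median of the 10 was again -0.20, beside 0.01 over all genes. These comparisons share the mimic arrays. All mimic arrays lay below all scrambled arrays for 6 of the 10 genes and above them for 3, beside 15.4% and 14.5% of all genes. Relative to mock these counts were again 6 and 3, beside 17.6% and 16.8%. All scrambled arrays lay below all mock arrays for 3 genes and above them for 3, beside 15.2% and 14.9%. Between scrambled control and mock, SHC1 was lower and WDR37 higher, while the other 8 did not pass. Among all genes 7.91% were called there, 2.71% higher and 5.21% lower. These 2 calls became 0 without mock replicate 2, 1 without scrambled replicate 1 or 3 or mock replicate 1 or 3, and 3 without scrambled replicate 2.

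**Figure D1:**
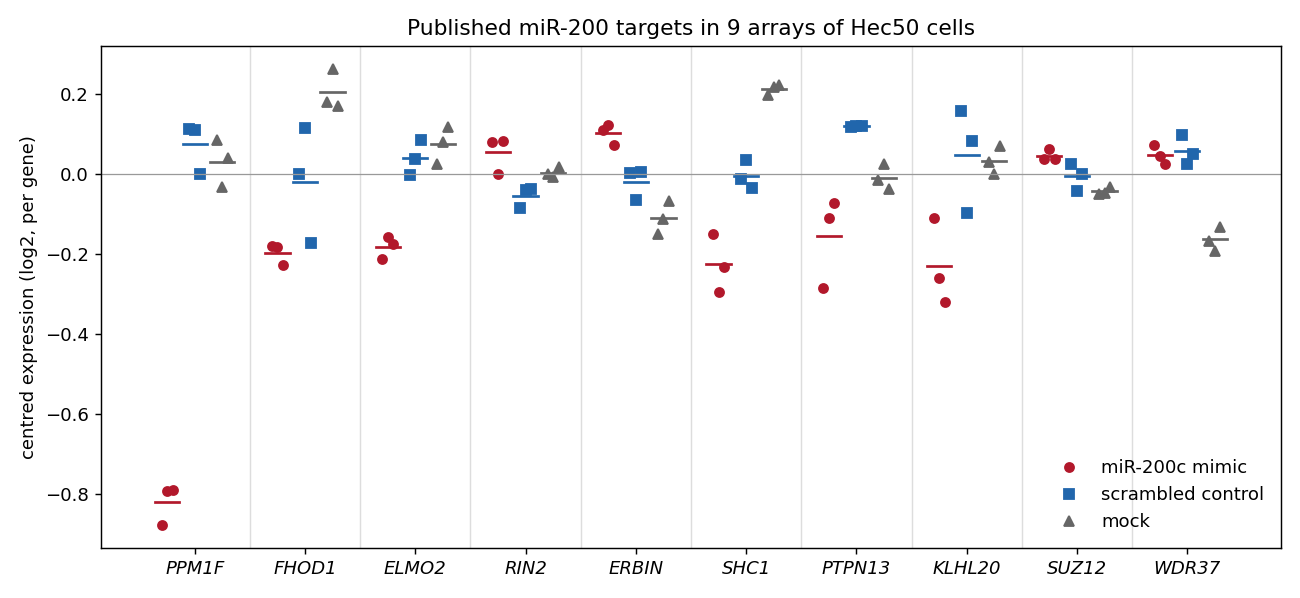
Centred log2 expression of the 10 genes (vertical axis) on each of the 9 arrays, with red circles for mimic, blue squares for scrambled control and grey triangles for mock, and a line at each mean of 3 arrays. PPM1F stands lowest with the mimic, at -0.88 to -0.79. The mimic arrays of PPM1F, FHOD1, ELMO2, SHC1, PTPN13 and KLHL20 lie below all control arrays. The mock arrays of ERBIN and WDR37 lie below all others.

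Of the genes of actin and motility, PPM1F encodes a serine/threonine phosphatase that removes phosphates from PAK kinases and from calmodulin-dependent kinase II. It has been reported with FHOD1 as a target of miR-200c in breast cancer cells. PPM1F read -0.88, -0.79 and -0.79 on the mimic arrays, 0.11, 0.11 and 0.00 on the scrambled control arrays, and 0.09, -0.03 and 0.04 on the mock arrays. The mimic arrays lay far below both control groups, which overlapped each other. PPM1F was 1.86-fold lower with the mimic than with scrambled control (log2 change -0.89, SE 0.0521, limma adjusted p = 1.78e-06). Against mock it was 1.80-fold lower (log2 change -0.85, limma adjusted p = 2.78e-06), and scrambled control and mock differed by 0.04 (limma adjusted p = 0.66).

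The 4 probe sets of PPM1F did not move alike. The value above is that of 37384_at, the only PPM1F probe set at level 8 or more. Probe set 203063_at read -0.61, -0.39 and -0.72 with the mimic, against -0.01, 0.00 and 0.02 with scrambled control and 0.13, 0.12 and 0.13 in mock, again without overlap. Its log2 change was -0.58 against scrambled control (limma adjusted p = 0.000808) and -0.70 against mock (limma adjusted p = 0.000221). For 1555470_a_at the change against scrambled control was -0.32 (limma adjusted p = 0.0408), with mimic values of -0.50, -0.18 and -0.16. That call was lost without mimic replicate 1, or without any one of the scrambled or mock replicates (adjusted p 0.0566 to 0.127). For 1555091_at the change was -0.07 (limma adjusted p = 0.669).

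Whether a probe set departs from the gene's others was tested by its difference from their mean, over 31839 probe sets, of which 3.91% were called between mimic and scrambled control (1.88% higher, 2.04% lower). Of 27 probe sets of the 10 genes with a partner, 2 were called, and both were of PPM1F. Probe set 37384_at fell by 0.57 relative to its partners (limma adjusted p = 0.0014) and 1555091_at stood 0.52 above its partners (limma adjusted p = 0.0022). The gene's mean over all 4 probe sets gave a log2 change of -0.47 against scrambled control (limma adjusted p = 0.000287) and of -0.49 against mock (limma adjusted p = 0.000216).

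FHOD1 is a formin that builds and bundles actin filaments in stress fibres, and it had 1 probe set, at level 4 to 8. It read -0.18, -0.18 and -0.23 with the mimic, 0.00, 0.11 and -0.17 with scrambled control, and 0.18, 0.26 and 0.17 in mock. The mimic arrays were below all mock arrays, and the third scrambled array lay beside them. FHOD1 was 1.32-fold lower with the mimic than in mock (log2 change -0.40, limma adjusted p = 0.00191). Against scrambled control the change was -0.18 (95% interval -0.33 to -0.03, limma adjusted p = 0.114). Without scrambled replicate 3 it became -0.25 and passed (adjusted p = 0.0174). Scrambled control minus mock was -0.22 (adjusted p = 0.0696), and this passed without scrambled replicate 2 (-0.29, adjusted p = 0.0316).

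ELMO2 pairs with DOCK proteins to activate RAC in migration and in the engulfment of dying cells. ELMO2 read -0.21, -0.16 and -0.18 with the mimic, -0.00, 0.04 and 0.08 with scrambled control, and 0.02, 0.08 and 0.12 in mock. Mimic arrays lay below all others, and the control groups overlapped. ELMO2 was 1.17-fold lower than with scrambled control (log2 change -0.22, SE 0.0456, limma adjusted p = 0.00749) and 1.19-fold lower than in mock (log2 change -0.26, limma adjusted p = 0.00274).

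Of the 4 probe sets of ELMO2, 2 were called lower against scrambled control. Against scrambled control the log2 change was -0.29 at 220363_s_at (limma adjusted p = 0.0172), -0.27 at 55692_at (0.00774), -0.17 at 221528_s_at (0.0866) and 0.05 at 1554857_at (0.737). Against mock the first 3 all passed, at -0.43, -0.24 and -0.27. In the test used for PPM1F, 1554857_at stood 0.28 above its partners for mimic against the mean of both controls (limma adjusted p = 0.038). This departure was not called against scrambled control alone (limma adjusted p = 0.0728) or mock alone (0.0747). The call at 220363_s_at against scrambled control was lost without mimic replicate 3, scrambled replicate 1 or scrambled replicate 3 (adjusted p 0.0549 to 0.0668).

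RIN2 exchanges nucleotide on RAB5, a GTPase of early endosomes, and binds RAS. RIN2 read 0.08, 0.00 and 0.08 with the mimic, -0.09, -0.04 and -0.04 with scrambled control, and 0.00, -0.01 and 0.02 in mock. The mimic arrays were above all scrambled arrays and overlapped mock. The log2 change was 0.11 against scrambled control (95% interval 0.01 to 0.20, limma adjusted p = 0.129) and 0.05 against mock (95% interval -0.04 to 0.15, limma adjusted p = 0.475), and neither passed. Its other probe set, 233811_at, gave -0.05 against scrambled control (limma adjusted p = 0.748).

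Among the genes of receptor signalling, SHC1 was lower with the mimic and ERBIN was not. SHC1 is the adaptor that couples activated receptor tyrosine kinases to GRB2 and RAS. SHC1 read -0.15, -0.30 and -0.23 with the mimic, -0.01, 0.03 and -0.03 with scrambled control, and 0.20, 0.22 and 0.22 in mock. The groups formed 3 separate steps, with the mimic lowest and mock highest. SHC1 was 1.17-fold lower with the mimic than with scrambled control (log2 change -0.22, SE 0.048, limma adjusted p = 0.00986) and 1.36-fold lower than in mock (log2 change -0.44, limma adjusted p = 0.000126).

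SHC1 was also 1.16-fold lower in scrambled control than in mock (log2 change -0.22, limma adjusted p = 0.0223). That call was lost without scrambled replicate 1 or 3 or any one mock replicate (adjusted p 0.0584 to 0.0791). Its probe sets, both at level 8 or more, were not called apart in the test used for PPM1F (scrambled control against mock adjusted p = 0.109, mimic against scrambled control 0.59, mimic against mock 0.195). At 201469_s_at scrambled control was 0.34 below mock on the log2 scale (limma adjusted p = 0.00851) and the mimic changed by -0.18 against scrambled control (limma adjusted p = 0.0672), which passed without mimic replicate 1 (adjusted p = 0.039). At 214853_s_at the mimic changed by -0.26 against scrambled control (limma adjusted p = 0.0259), lost without mimic replicate 2 or scrambled replicate 1 or 2 (adjusted p 0.0758 to 0.0932), and scrambled control by -0.09 against mock (limma adjusted p = 0.471).

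ERBIN is a scaffold of the LAP family, with leucine-rich repeats and a PDZ domain, that binds the receptor ERBB2. ERBIN read 0.11, 0.12 and 0.07 with the mimic, 0.00, -0.07 and 0.00 with scrambled control, and -0.15, -0.11 and -0.07 in mock. The mimic arrays were above every control array. The rise of 1.16-fold over mock passed (log2 change 0.21, limma adjusted p = 0.00705), while the change of 0.12 against scrambled control did not (95% interval 0.02 to 0.22, limma adjusted p = 0.101). These values average 217941_s_at and 222473_s_at. Against mock the first passed (log2 change 0.28, limma adjusted p = 0.00842) and the second did not (0.14, limma adjusted p = 0.088). The third probe set, 232896_at, scattered from -0.48 to 0.06 on the mimic arrays and from -0.28 to 0.38 on the mock arrays, and with it in the mean the change against mock was 0.06 and did not pass (limma adjusted p = 0.583).

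PTPN13 is a large tyrosine phosphatase, also called FAP-1, that binds the death receptor CD95. PTPN13 read -0.28, -0.11 and -0.07 with the mimic, 0.12, 0.12 and 0.12 with scrambled control, and -0.02, 0.02 and -0.04 in mock. The mimic arrays were lowest, and the scrambled control arrays were above all mock arrays. PTPN13 was 1.21-fold lower with the mimic than with scrambled control (log2 change -0.27, SE 0.0565, limma adjusted p = 0.00743). Against mock the change was -0.15 (95% interval -0.27 to -0.02) and did not pass (limma adjusted p = 0.103).

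The larger PTPN13 contrast was at 204201_s_at, which read -0.20, -0.18 and -0.10 with the mimic, 0.24, 0.22 and 0.17 with scrambled control, and -0.03, 0.00 and 0.00 in mock. Its log2 change was -0.37 against scrambled control (limma adjusted p = 0.00133) and -0.15 against mock (limma adjusted p = 0.0961). Scrambled control was 0.22 above mock there (limma adjusted p = 0.0437), so the controls themselves differed. That call was lost without any one array other than mimic replicate 1 (adjusted p 0.0523 to 0.127). At 243792_x_at, whose mimic values were -0.37, -0.04 and -0.05, the change of -0.18 against scrambled control did not pass (limma adjusted p = 0.255).

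KLHL20 is a Kelch-repeat protein that brings substrates such as DAPK1 and PML to the CUL3 ubiquitin ligase. KLHL20 read -0.11, -0.26 and -0.32 with the mimic, 0.16, -0.10 and 0.08 with scrambled control, and 0.03, 0.00 and 0.07 in mock. The highest mimic array lay just under the lowest scrambled array, while mock lay clear of the mimic. KLHL20 was 1.21-fold lower than with scrambled control (log2 change -0.28, SE 0.0723, limma adjusted p = 0.0253) and 1.20-fold lower than in mock (log2 change -0.26, limma adjusted p = 0.0275).

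These were the least stable calls among the lowered genes. Against scrambled control KLHL20 did not pass without mimic replicate 2 or 3 or scrambled replicate 1 or 3 (adjusted p 0.0757 to 0.0978), nor in a fit of these 2 groups alone (adjusted p = 0.0576). Against mock it did not pass without mimic replicate 2 or 3 or any one mock replicate (adjusted p 0.0565 to 0.102), nor as the mean of all 4 probe sets (log2 change -0.14, adjusted p = 0.129) or after quantile normalization (adjusted p = 0.0653). The gene value rests on 204177_s_at, which among probe sets passed narrowly against scrambled control (limma adjusted p = 0.0496) and mock (0.0499) and whose class of 8 or more was assigned with a posterior of 0.751. Probe set 204176_at changed by -0.36 against scrambled control (limma adjusted p = 0.0305) and by -0.13 against mock (limma adjusted p = 0.42), and the first of these was lost without any one of the mimic replicates or scrambled replicate 1 or 3 (adjusted p 0.0663 to 0.106).

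SUZ12 is a core subunit of polycomb repressive complex 2, which methylates histone H3 and keeps genes silent. SUZ12 read 0.04, 0.06 and 0.04 with the mimic, 0.02, -0.04 and 0.00 with scrambled control, and -0.05, -0.05 and -0.03 in mock. The mimic arrays were all slightly above both control groups. The log2 change was 0.05 against scrambled control (95% interval -0.04 to 0.14, limma adjusted p = 0.482) and 0.09 against mock (limma adjusted p = 0.168), so no lower level with the mimic was measured. Its 1566190_at was the only probe set of the 10 genes under level 4. The probe set shared with SUZ12P1 changed by -0.03 against scrambled control (limma adjusted p = 0.835).

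WDR37 is a protein of WD repeats. WDR37 read 0.07, 0.04 and 0.02 with the mimic, 0.10, 0.02 and 0.05 with scrambled control, and -0.17, -0.19 and -0.13 in mock. The mimic and scrambled arrays overlapped, and all of them were above mock. The log2 change was -0.01 between mimic and scrambled control (95% interval -0.10 to 0.09, limma adjusted p = 0.925). WDR37 was 1.16-fold higher with the mimic than in mock (limma adjusted p = 0.00575) and 1.17-fold higher with scrambled control than in mock (limma adjusted p = 0.0127), and this last call was lost without mock replicate 2 (adjusted p = 0.0552).

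Its 3 probe sets are given one by one. Between mimic and scrambled control the log2 change was -0.19 at 1554869_at (limma adjusted p = 0.0621), 0.14 at 242255_at (0.234) and 0.03 at 211383_s_at (0.86). The gene value for that comparison thus averages changes of opposite sign, none of which passed. In the test used for PPM1F none departed from its partners between scrambled control and mock (adjusted p 0.0914 to 0.991) or between mimic and mock (0.0759 to 0.928). Nor did any depart between mimic and scrambled control (0.0787 to 0.789). For mimic against the mean of both controls, 242255_at did stand 0.23 above its partners (limma adjusted p = 0.0485). At 1554869_at scrambled control exceeded mock by 0.42 (limma adjusted p = 0.00448) and the mimic exceeded mock by 0.22 (limma adjusted p = 0.0273), the second of which did not hold without any one of the mimic replicates or mock replicate 1 or 2 (adjusted p 0.0507 to 0.101). At 242255_at the mimic exceeded mock by 0.36 (limma adjusted p = 0.00416). At 211383_s_at no comparison passed.

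Of the 28 probe sets, 9 were lower with the mimic than with scrambled control, none was higher and 19 did not pass in limma. At an unadjusted p under 0.05, 13 were lower and 2 higher. The share of all probe sets at that threshold was not counted, so these counts cannot be judged against it. Without scrambled replicate 1 the 9 became 4. Among all probe sets 8.66% were called, 4.52% higher and 4.15% lower. Against mock 9 were lower and 3 higher, beside 12.1% of all probe sets (5.07% higher, 6.98% lower). Scrambled control minus mock gave 1 lower and 2 higher, beside 4.07% (1.23% higher, 2.84% lower). Calls in the whole table became fewer with lower level, from 16.2% at level 8 or more to 6.90% at 4 to 8 and 0.841% under 4 between mimic and scrambled control. Of the members, 5 of the 12 probe sets at level 8 or more and 4 of the 15 at 4 to 8 were lower, beside 8.56% and 2.90% of all probe sets of those levels that were lower.

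**Figure D2:**
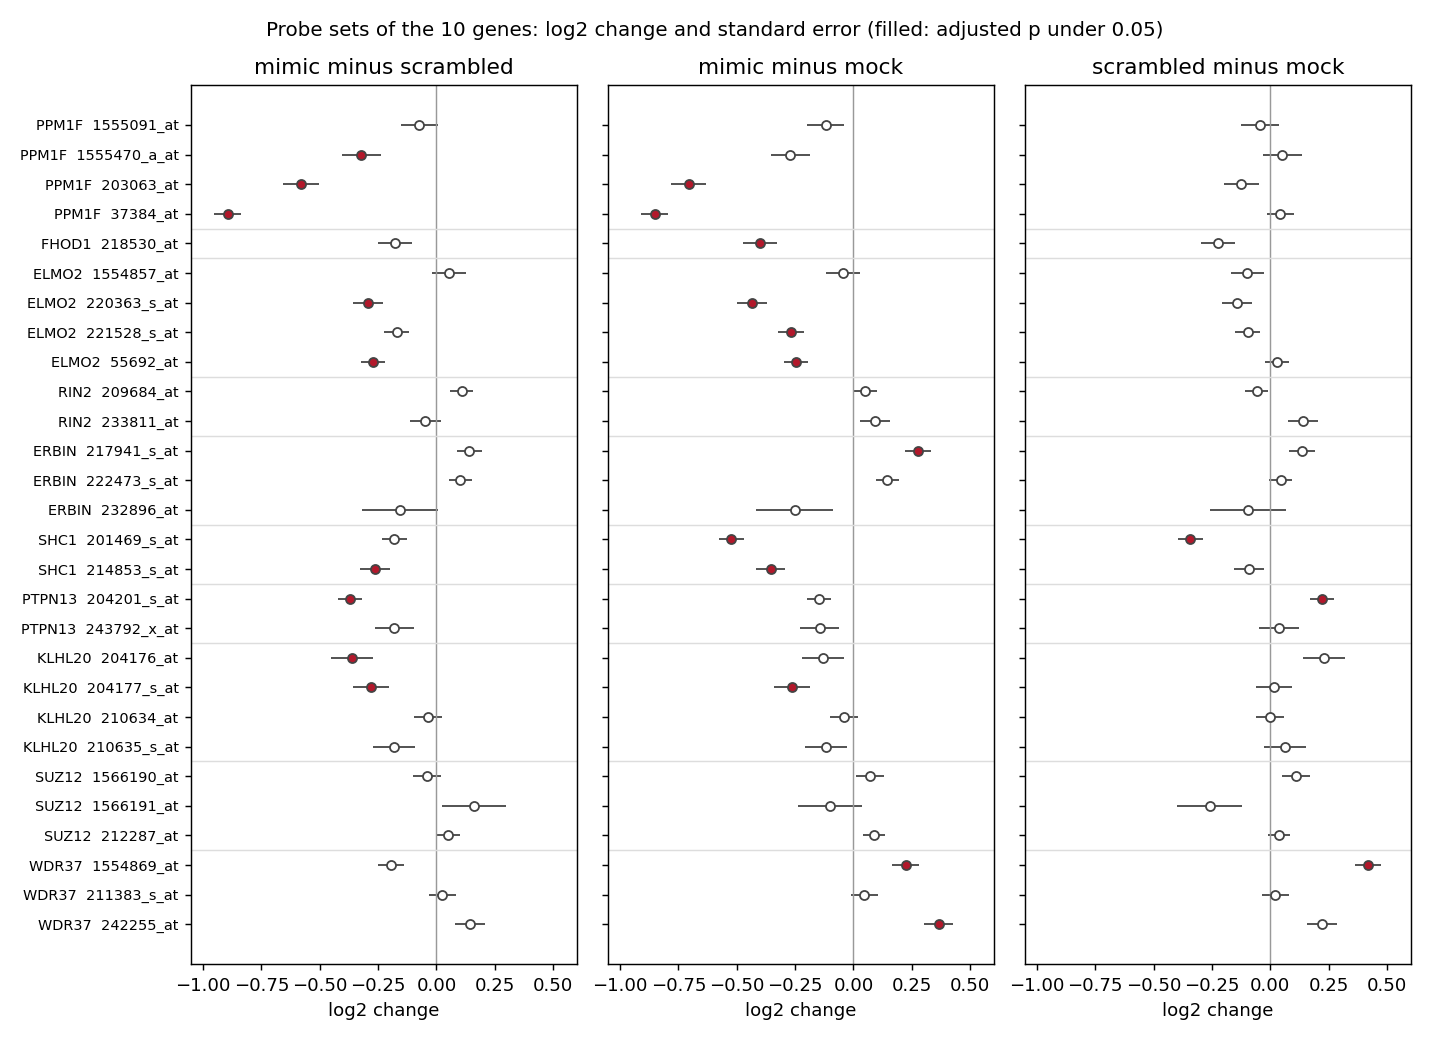
Log2 change (horizontal axis) of each of the 28 probe sets with its standard error as a bar, in 3 panels for mimic minus scrambled control, mimic minus mock and scrambled control minus mock, filled where the adjusted p was under 0.05. The PPM1F probe sets spread from -0.89 to -0.07 in the first panel, and the filled points to the right of 0 in the second panel belong to ERBIN and WDR37.

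Set against the mean of both control groups, which uses all control arrays, 6 of the 10 genes were lower, 1 was higher (ERBIN) and 3 did not pass, beside 18.1% of all genes called, 8.69% higher and 9.42% lower. The log2 changes ran from -0.87 for PPM1F to 0.17 for ERBIN. The lower genes were PPM1F, FHOD1, ELMO2, SHC1, PTPN13 and KLHL20. The call of KLHL20 was lost without mimic replicate 2 or 3 (adjusted p 0.0511 and 0.0632), and that of ERBIN with the mean of all its probe sets (log2 change 0.04, adjusted p = 0.66).

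The partners of the 10 genes were then read from 9 lists of their pathways, which held 127 measured genes. Between mimic and scrambled control 17 were higher, 12 were lower and 98 did not pass, which is 22.8% called beside 14.5% of all genes (7.56% higher, 6.95% lower), with a median log2 change of -0.01. Against mock 12 were higher, 20 were lower and 95 did not pass, or 25.2% beside 18.5% of all genes (8.28% higher, 10.2% lower). Which direction held more calls turned with the control, as it did over all genes. In the list of PAK kinases with PIX and GIT proteins, the setting of PPM1F, 3 of 12 were lower and none higher in limma (6 lower and 0 higher at an unadjusted p under 0.05), and the counts against mock were also 3 lower and none higher. GIT2, a scaffold at focal adhesions, changed by -0.51 (limma adjusted p = 0.000239), and PAK2, a kinase activated by RAC and CDC42, by -0.18 (limma adjusted p = 0.0143). Against mock these changed by -0.46 and -0.29. Of the 5 probe sets of GIT2, 2 were lower and 1 was higher in both comparisons. Of the 6 of PAK2, 2 were lower than with scrambled control and 4 lower than in mock, with none higher. None of the other 12 formins passed in limma in either comparison (1 lower and 1 higher at an unadjusted p under 0.05 in each). Against scrambled control the smallest p belonged to FMNL3 (log2 change -0.19, limma adjusted p = 0.0839) and DIAPH3 (0.11, limma adjusted p = 0.148).

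Of the ELMO and DOCK module 3 of 13 were higher and 2 lower with the mimic than with scrambled control, and 2 were higher and 3 lower than in mock. ELMOD2, a GTPase-activating protein for ARL proteins, changed by -0.31 (limma adjusted p = 0.00094), and the exchange factor ARHGEF16 by 0.32 (limma adjusted p = 0.00283). Of the 5 probe sets of ELMOD2, 1 was lower and 1 higher than with scrambled control, and 1 was lower and none higher than in mock. Among RIN2's partners around RAB5, 1 of 9 was higher and none lower than with scrambled control, and 1 was higher and 1 lower than in mock. At an unadjusted p under 0.05 against scrambled control, 1 was higher and 2 lower, beside 13.0% and 13.6% of all genes. The gene called higher than with scrambled control was GAPVD1, a RAB5 exchange factor (log2 change 0.31, limma adjusted p = 0.000951). Next came RAB5C (-0.16, limma adjusted p = 0.12).

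Of the adaptors, RAS and MAPK genes around SHC1, 2 of 14 were higher and none lower than with scrambled control. At an unadjusted p under 0.05, 2 were higher and 2 lower there, beside 13.0% and 13.6% of all genes. Against mock 1 was higher and 2 lower in limma. IGF1R, a receptor tyrosine kinase, rose by 0.70 (limma adjusted p = 5.19e-06) and by 0.74 against mock. MAP2K1, the kinase upstream of ERK, rose by 0.37 over scrambled control (limma adjusted p = 0.000205) but stood at -0.08 against mock, and scrambled control was 0.45 below mock. Of the LAP and DLG scaffolds around ERBIN, 3 of 14 were higher and 1 lower than with scrambled control, and 1 was higher and 2 lower than in mock. LRRC1, a leucine-rich scaffold related to SCRIB, rose by 0.73 (limma adjusted p = 1.57e-05), and LIN7A, a small PDZ scaffold, fell by 0.55 (limma adjusted p = 2.78e-05). Only 1 of the 2 probe sets of LRRC1 was called higher there, and only 1 of the 4 of LIN7A lower. Against mock LRRC1 changed by 0.77 and LIN7A by -0.34, and scrambled control was 0.21 above mock for LIN7A (limma adjusted p = 0.0242).

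Of the nonreceptor tyrosine phosphatases and CD95 pathway genes around PTPN13, 3 of 20 were higher and 4 lower than with scrambled control, and 2 were higher and 6 lower than in mock. PTPN11, known as SHP2 and a positive regulator of RAS signalling, changed by -0.50 (limma adjusted p = 2.4e-05) and PTPN12, a phosphatase of focal adhesion proteins, by -0.46 (limma adjusted p = 3.76e-05). Against mock these changed by -0.43 and -0.35. The list around KLHL20 held the CUL3 ligase and its adaptors, with DAPK1, PML and ULK1. Of its 23 genes 4 were higher and 2 lower than with scrambled control, and 3 were higher and 3 lower than in mock. KLHL2 rose by 0.85 over scrambled control (limma adjusted p = 1.38e-06) and by 0.21 over mock, with scrambled control 0.64 below mock. KLHL3, an adaptor for WNK kinases, was 0.31 lower than with scrambled control on the log2 scale (limma adjusted p = 0.000629) but changed by -0.09 against mock (limma adjusted p = 0.192), and scrambled control was 0.22 above mock (limma adjusted p = 0.0129). Of the 2 probe sets of KLHL3, 1 was called lower than with scrambled control. In polycomb repressive complex 2, 1 of 10 was higher and none lower than with scrambled control, and 2 were higher and none lower than in mock. At an unadjusted p under 0.05 against scrambled control, 4 were higher and 1 lower, beside 13.0% and 13.6% of all genes. PHF1, an accessory subunit, was higher by 0.20 than with scrambled control (limma adjusted p = 0.0115) but changed by 0.03 against mock (limma adjusted p = 0.746), and scrambled control was 0.18 below mock (limma adjusted p = 0.0396). Of the 2 probe sets of PHF1, 1 was called higher than with scrambled control. JARID2, another accessory subunit, changed by 0.17 against scrambled control (limma adjusted p = 0.074) and by 0.03 against mock.

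The 47 other measured genes of the list of published targets gave 23 lower, 3 higher and 21 not passing between mimic and scrambled control, with a median log2 change of -0.20. Against mock 23 were lower, 1 was higher and 23 did not pass, with a median of -0.24, beside 10.2% of all genes lower and 8.28% higher. Between scrambled control and mock, 7 of the 47 were lower and 1 higher, beside 5.21% and 2.71% of all genes. Against scrambled control, 5 of the 10 signalling genes and 23 of these 47 were lower, beside 6.95% of all genes. None of the 10 and 3 of the 47 were higher there, beside 7.56% of all genes. Both lists were written with earlier results of these data known, so these shares are not independent evidence. ZEB1 changed by -1.57 (limma adjusted p = 1.63e-07) and SEC23A, a subunit of the COPII vesicle coat, by -1.44 (limma adjusted p = 7.11e-08). PPM1F, with the largest change of the 10, stood at -0.89.

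**Figure D3:**
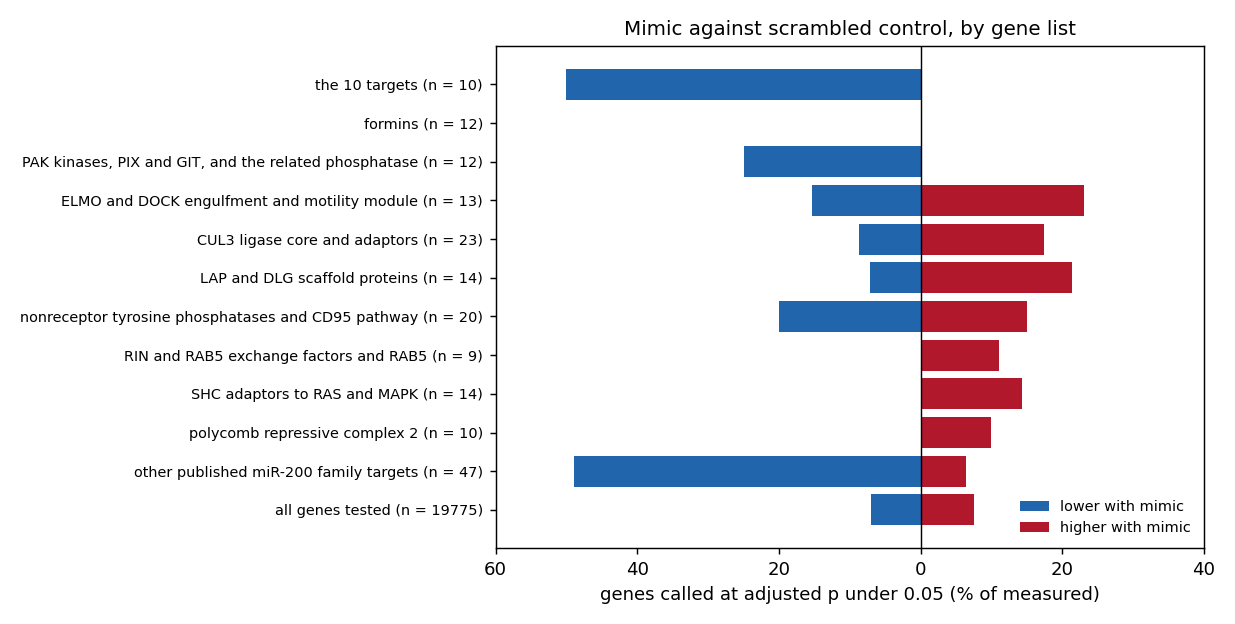
Share of measured genes (horizontal axis, percent) that were lower (blue, to the left) or higher (red, to the right) with the mimic than with scrambled control, for the 10 targets, the 9 pathway lists, the other published targets and all genes tested. Of the 10 targets 5 were lower, none was higher and 5 were not called. Of the other 47 published targets 23 were lower, 3 higher and 21 not called. In the pathway lists 17 genes were higher and 12 lower. Against mock, not drawn, 12 genes of the pathway lists were higher and 20 lower.

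The patterns over the 9 arrays were also compared between genes by Pearson's r, as a description over points that share their arrays and groups. PPM1F was most like ANK2, OSTM1 and HPS5, each with r = 0.99. ELMO2 was most like SPTSSA, NAV3 and NIN, SHC1 like NPAS2, CTSB and MAP7D1, PTPN13 like FTO, EIF4G2 and NGLY1, and KLHL20 like MAGOHB, TMEM65 and IPO8. Among the 10 genes themselves the highest values were 0.96 for ERBIN with SUZ12, 0.93 for PPM1F with ELMO2 and 0.93 for FHOD1 with SHC1, and the lowest was -0.94 for ERBIN with SHC1.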

How the data were processed

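Total RNA of 9 samples of Hec50 cells (3 mimic, 3 scrambled control, 3 mock) was labelled with biotin and hybridised, per the labels' protocols. The authors deposited 1 table of log2 values for 54675 probe sets; how probes were summarised and arrays normalized, and the base of the log, are not given in the sources used here, and log2 was read from the range of the values. Every probe set's median over the arrays was exactly 0 in the deposited table. Level classes came from the rounding step that centring leaves in each value, and 98.5% of 6000 simulated probe sets were placed in their own class. Scanner files were not used here.

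Probe sets were named through the platform's probe table: 41091 had 1 symbol, 1801 several and 11721 none, and 62 controls were left out. The tests used limma 3.58.1 (R 4.3.3, two-sided, moderated variances) with a mean per group and all 9 arrays in the fit, on probe sets and on gene values, with Benjamini-Hochberg adjustment over all features and a threshold of 0.05. The fits were tested on simulated data. Intervals are 95%. The number of arrays limits the precision, and the median SE of a gene's log2 change between groups was 0.0591. Alternatives were quantile normalization, only the groups compared, replicate number as a block, array weights, robust moderation, features at level 8 or more, the mean of all probe sets of a gene, and each array left out. The text names all 10 genes and, from each list, the 2 genes with the smallest p between mimic and scrambled control, and for each gene called between them the 3 genes of most similar pattern. The members, lists and tests were chosen with earlier results of these data known. Listed genes absent from the named probe sets were not analysed here.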

Additional observations from a re-analysis of the deposited data

How the results depend on the processing

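No called value of the 10 genes or their probe sets changed direction under any alternative. Of 2210 values recomputed, 2105 kept their side of the threshold, 85 lost it and 20 gained it, and 33 that passed neither before nor after changed sign. Counts of genes called between mimic and scrambled control were 4 to 7 against 5, and between mimic and mock 5 to 7 against 7. Those between scrambled control and mock, 2, were 1 among features at level 8 or more and 0 to 3 with an array left out. Probe sets called between mimic and scrambled control, 9, were 4 to 8 with an array left out, the lowest without scrambled replicate 1. Probe sets called between scrambled control and mock, 3, became 5 with array weights, and were 2 to 3 with an array left out. The probe sets that departed from their partners between mimic and scrambled control, 2, became 1 at level 8 or more. At 204177_s_at of KLHL20 the calls held in 5 of 15 alternatives against scrambled control and in 7 of 15 against mock. The cause of these shifts was not tested.

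With the replicate number as a block, 5 genes were called between mimic and scrambled control, 7 between mimic and mock and 2 between scrambled control and mock; the counts of probe sets were 7, 12 and 2. The labels give no pairing, and deviations of same-numbered arrays correlated by -0.153 to 0.117, with 3 of 9 arrays closest to one of their own number. Among features at level 8 or more, ERBIN (adjusted p = 0.0367) and RIN2 (adjusted p = 0.0491) were higher with the mimic than with scrambled control, and PTPN13 was lower than in mock (adjusted p = 0.048). Centred values carry no background level, so a dim probe set is known only by its class. The SE of the 10 genes' log2 changes, 0.0406 to 0.0723, sets the size that could be told from 0.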
